A study of Mus musculus with 6 samples.

Results

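The genes of heterotrimeric G protein and cyclic AMP (cAMP) signalling were examined in whole pituitary glands of wild-type and Bmal1-/- mice. Members were taken by gene symbol alone: G protein alpha, beta and gamma subunits (Gna, Gnb and Gng genes), regulators of G protein signalling (Rgs genes other than Rgs5), adenylyl cyclases (Adcy), phosphodiesterases (Pde) and the regulatory and catalytic subunits of protein kinase A (Prkar and Prkac). The rule found 76 genes among the 12393 that the array reads with a probe set assigned to 1 gene. Of these, 54 were bright enough to be tested and 22 were not. The rule itself uses no measured value.

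RNA from C57BL/6J males, 8 to 12 weeks old, was hybridised to 6 Affymetrix 3' expression arrays, 3 of wild-type mice (replicates 1 to 3) and 3 labelled Bmal1-/- (replicates 4 to 6). Each array carried a pool of 3 pituitaries, so a replicate is a separate set of animals. The mice were kept in 12 h of light and 12 h of darkness and were killed at zeitgeber time 12, the hour of lights off. BMAL1, encoded by Arntl, pairs with CLOCK to drive the circadian clock, and the sources used here do not say how its allele was made.

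Hormone-releasing cells of the pituitary answer the hypothalamus through receptors that act on heterotrimeric G proteins. A bound receptor loads the alpha subunit with GTP and frees it from the beta-gamma pair, and RGS proteins end the signal by speeding GTP hydrolysis. The Gs alpha subunit stimulates adenylyl cyclases, which make cAMP, and Gi alpha subunits inhibit them. Phosphodiesterases degrade cAMP, and cAMP releases the catalytic subunits of protein kinase A (PKA) from the regulatory ones. Growth hormone-releasing hormone acts on somatotrophs and corticotropin-releasing hormone on corticotrophs through Gs, while somatostatin and dopamine act through Gi and Go.

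Intensities are MAS5 values on a linear scale, and n = 3 arrays per genotype throughout. Log2 fold changes are differences of mean log2(intensity + 16), Bmal1-/- minus wild type by label, so a positive value means higher on the Bmal1-/- labelled arrays. Adjusted p-values are from limma with Benjamini-Hochberg adjustment over all 13576 tested probe sets, and a gene counts as risen or fallen where the adjusted p was under 0.05. Arrays of 1 genotype correlated at a Pearson's r of 0.980 to 0.986, and arrays of different genotypes at 0.970 to 0.976. The probe set for the targeted gene went against the labels: Arntl read 43.3 ± 7.29 (SD) in wild type and 114 ± 12.8 on the Bmal1-/- labelled arrays (log2 fold change 1.13, adjusted p 0.000653). The sources used here do not say where it lies relative to the deleted part, so it does not check the labels, and every direction below rests on them.

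Markers bear on the tissue label. The 8 measured anterior endocrine genes, among them Gh, Prl and Pomc, all passed the filter on dim probe sets, with a summed intensity of 61214 to 69660 in wild type and 55412 to 58253 on the Bmal1-/- labelled arrays. Of the posterior lobe and glial markers, Mbp rose (0.52, adjusted p 0.0210), Oxt was lower without passing (-0.57, adjusted p 0.0565), and Avp, Gfap, Mog and Rax were near the floor. Summed pericyte and smooth muscle markers lay at 807 to 928 in wild type against 554 to 576, macrophage markers at 484 to 510 against 338 to 399, and endothelial markers at 495 to 594 against 594 to 688. The pericyte sum is mostly Rgs5 (684 in wild type against 392), and Acta2, Kcnj8 and Pdgfrb lay below 0 without passing. Of the 6 endothelial markers, 4 lay above 0, Plvap alone passed (0.40, adjusted p 0.0287), and Kdr and Pecam1 lay below 0. A sum led by 1 gene does not show a change of its cell type. In a bulk sample, fewer cells of a type and less RNA per cell cannot be told apart.

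Of the 54 tested members, 5 passed the test. Pde6d, Rgs4, Gng3 and Gnb2 rose, and Gnas, the gene of the stimulatory alpha subunit, fell. That is 9.26% of the tested members, against 5.66% of all 8033 tested genes. The 4 that rose make 7.41% of the tested members, against 3.00% of all tested genes, and the 1 that fell makes 1.85%, against 2.66%. These shares rest on few genes, and nothing particular to the families is read from them.

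More members than those 5 had genotypes whose arrays did not overlap. All 3 Bmal1-/- labelled arrays lay above or below all 3 wild-type arrays for 23 of the 54 tested members (42.6%), 15 of them higher and 8 lower, against 26.4% of all tested genes. An unadjusted p under 0.05 was reached by 17 members (31.5%), against 21.5% of all tested genes. The median log2 fold change was 0.06 over the members and -0.00034 over all tested genes, and the median absolute change was 0.20 against 0.14. The median standard error of 1 gene was 0.13 over all tested genes.

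The balance of directions depends on how the arrays are scaled. Array-wide, 374 probe sets rose and 378 fell, so 49.7% of the changed ones rose. With the arrays set to equal medians, which lifts the median gene by 0.08 on the log2 scale, the counts were 801 and 265 (75.1% rose), and the members then gave 8 that rose and 1 that fell. The share of all tested genes called was also higher under that scaling, at 8.44%. The added members were Gnb1, Gnb5, Gng2 and Gng10, all beta or gamma subunits.

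**Figure D1:**
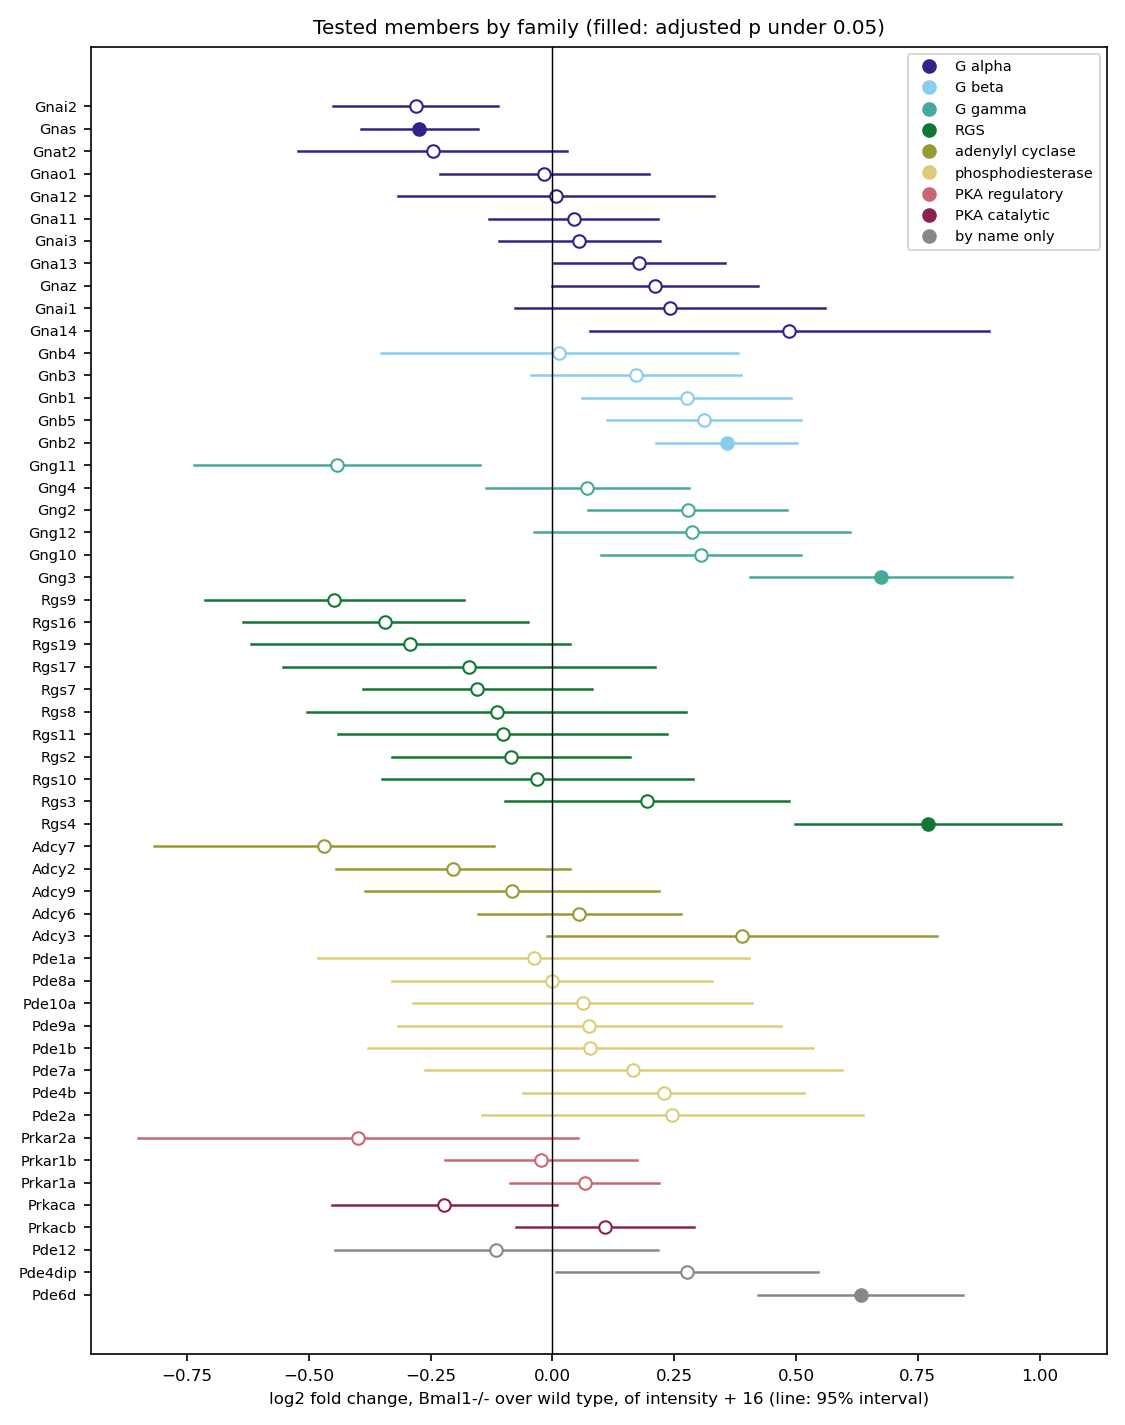
Each point is the log2 fold change of 1 tested member, Bmal1-/- labelled arrays over wild type, with its 95% interval as a line, and colour gives the family. Filled points passed an adjusted p of 0.05: Pde6d, Rgs4, Gng3 and Gnb2 lie to the right of 0 and Gnas to the left, and all 5 beta subunits lie to the right.

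The promoters of the 4 members that rose are shown because they are the sequences a shared pattern could be read against. Each is the 250 bases before the RefSeq start in build GRCm38.p6, written 5′ to 3′ on the gene's own strand, which is the minus strand for all 4. Pde6d has chr1:86582786-86583035, Rgs4 chr1:169747643-169747892, Gng3 chr19:8839247-8839496 and Gnb2 chr5:137533307-137533556. Capitals mark any CACGTG (the E-box that CLOCK and BMAL1 bind), CACGTT (its variant) or TGACG (the core of the cAMP response element), on either strand.
Pde6d: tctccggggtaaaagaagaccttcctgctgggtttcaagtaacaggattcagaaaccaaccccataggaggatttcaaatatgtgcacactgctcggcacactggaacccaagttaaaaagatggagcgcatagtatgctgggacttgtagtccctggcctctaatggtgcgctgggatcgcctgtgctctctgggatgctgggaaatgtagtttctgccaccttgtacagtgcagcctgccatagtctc
Rgs4: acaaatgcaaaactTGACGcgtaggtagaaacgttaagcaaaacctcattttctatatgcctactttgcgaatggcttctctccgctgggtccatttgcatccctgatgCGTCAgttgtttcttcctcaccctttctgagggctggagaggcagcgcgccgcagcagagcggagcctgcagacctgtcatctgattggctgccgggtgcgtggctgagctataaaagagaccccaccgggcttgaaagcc
Gng3: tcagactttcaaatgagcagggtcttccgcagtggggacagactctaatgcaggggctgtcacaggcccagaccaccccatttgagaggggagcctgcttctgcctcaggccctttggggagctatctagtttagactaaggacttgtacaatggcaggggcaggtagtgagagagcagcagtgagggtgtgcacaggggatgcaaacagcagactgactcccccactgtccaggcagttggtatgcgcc
Gnb2: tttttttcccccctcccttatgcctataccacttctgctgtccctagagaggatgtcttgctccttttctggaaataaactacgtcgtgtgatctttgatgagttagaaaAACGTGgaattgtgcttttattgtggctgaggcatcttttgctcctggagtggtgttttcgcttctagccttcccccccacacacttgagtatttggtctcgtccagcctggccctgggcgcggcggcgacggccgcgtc

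These windows share none of the marked motifs. Rgs4 holds TGACG starting 236 bases before its start and its reverse complement 141 bases before it. Gnb2 holds the reverse complement of CACGTT 140 bases before its start, and Pde6d and Gng3 hold none. GC content was 50.8% for Pde6d, 53.6% for Rgs4, 56.8% for Gng3 and 51.6% for Gnb2. A match is a description of letters, and its absence says only that these letters are not in this window.

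Over all members, 56 of 76 matched the RefSeq promoter table, with 100 windows between them. CACGTG was in 7 of the 100 member windows, against 6.02% of all 32851 windows of the same length. The 7 belong to Gna13, Gnai1, Gnai3, Rgs7, Prkaca, Prkar1a and Prkar1b, none of which passed the test with its brightest probe set. TGACG was in 22 member windows, against 17.8% of all windows, and the full palindrome TGACGTCA, which contains it, in 1, against 1.55%. CACGTT was in 1 member window (3.85% of all), GGGCGG in 41 (32.7%), AGGTCA in 8 (14%) and TTATGTAA in 0 (0.819%), all searched on both strands. The 4 Gnas windows held TGACG in 3 and no CACGTG. Windows of a gene with several starts can overlap, so a site can count more than once. The Gnas windows that begin at 174327499 and 174327518 overlap and hold the same TGACG site.

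Alpha subunits decide which effector a receptor reaches. Of 14 on the array, 11 were tested, 1 fell and none rose, against 2.66% and 3.00% of all tested genes. The median log2 fold change of the 11 was 0.04. Gnas encodes the Gs alpha subunit, and its locus also makes other imprinted transcripts. Its brightest probe set read 8804, 8894 and 9123 in wild type and 7443, 7649 and 7100 on the Bmal1-/- labelled arrays. Every wild-type array lay above every Bmal1-/- labelled array. The means were 8940 ± 165 (SD) and 7397 ± 277, a log2 fold change of -0.27 (SE 0.06, 95% interval -0.39 to -0.15, adjusted p 0.0153).

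The Gnas call is the least firm of the 5. This probe set is the 9th brightest of those tested, and 89 of the other 100 brightest were below 0 (median -0.11), 8 of them at least as low as Gnas. After quantile normalization, which gives probe sets of equal rank equal values, Gnas differed by -0.03 (adjusted p 0.755). The call was also lost without wild-type replicate 3 (adjusted p 0.0545), without Bmal1-/- replicate 4 (0.0549) or 6 (0.0788), without the filter on dim probe sets (0.0795), without the intensity trend (0.149) and with the mean of its probe sets (0.0597). It was lost too when probe sets ending in _s_at or _x_at were left out, since the brightest Gnas probe set is one of these. The other tested Gnas probe sets gave -0.17 (adjusted p 0.358) and -0.35 (0.207), the same direction. Of the 8 anterior endocrine markers, 6 lay below 0, with Gh and Cga past the threshold, and Lhb and Pitx1 lay above it. Their part in the Gnas difference was not tested.

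The inhibitory alpha subunits did not share a direction. Gnai2 read 773, 737 and 801 in wild type and 658, 580 and 657 on the Bmal1-/- labelled arrays, with no overlap. Its log2 fold change was -0.28 (SE 0.08) and its adjusted p 0.0562 missed the threshold, which it passed after quantile normalization (0.0383) and with array weights (0.0472). The second Gnai2 probe set gave -0.16.

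Gnai1 turned on which probe set was read. The brightest probe set read 206.7, 258.2 and 198.4 in wild type and 323.5, 270 and 206.9 on the Bmal1-/- labelled arrays, groups that overlap (log2 fold change 0.24, adjusted p 0.372). A second probe set read 66.7, 81.7 and 72.6 against 140.1, 120.7 and 105.5, with no overlap (0.62, SE 0.13, adjusted p 0.0181), and the third gave -0.05. With probe sets ending in _s_at or _x_at left out, which may match more than 1 transcript, Gnai1 counts among the members that rose.

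Gnai3 and Gnao1, the alpha subunit of Go, gave small differences by their brightest probe sets, with intervals that span 0. Gnai3 differed by 0.05 (95% interval -0.11 to 0.22), although a dimmer probe set gave -0.50 (adjusted p 0.133) and the mean of its probe sets -0.22. Both Gnai3 probe sets were without overlap between genotypes, the brightest higher and the dimmer lower on the Bmal1-/- labelled arrays. Gnao1 differed by -0.02 (-0.23 to 0.20). Gna11, which couples receptors such as that of gonadotropin-releasing hormone to phospholipase C, differed by 0.04 (-0.13 to 0.22). Gnaq, its close relative, was too dim to test, at 13, 9.5 and 11.1 in wild type and 3.9, 20.1 and 14.6 on the Bmal1-/- labelled arrays. The other tested alpha subunits, Gna12, Gna13, Gna14, Gnat2 and Gnaz, ranged from -0.25 to 0.49 and none passed.

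Beta subunits form the stable beta-gamma pair that anchors alpha at the membrane and acts on channels and enzymes once free. All 5 on the array were tested, and all 5 lay above 0, also after quantile normalization. Equal array medians lift the median gene, so that scaling could not have brought them below 0. Their median log2 fold change was 0.28, against -0.00034 over all tested genes. Gnb2 rose, from 851, 876 and 906 in wild type to 1156, 1126 and 1106 on the Bmal1-/- labelled arrays. The arrays of each genotype lay close together and far from the other genotype. The means were 878 ± 27.3 (SD) and 1129 ± 25.2, a log2 fold change of 0.36 (SE 0.07, 95% interval 0.21 to 0.50, adjusted p 0.0094). The call was lost when the variance was moderated without an intensity trend (adjusted p 0.0782).

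Gnb5 and Gnb1 lay on the same side without passing. Gnb5, the beta subunit that partners the R7 family of RGS proteins, read 267.9, 281.1 and 254.4 in wild type and 333, 310.4 and 367.1 on the Bmal1-/- labelled arrays (0.31, SE 0.09, adjusted p 0.0679). Its groups did not overlap. Gnb1 read 279.2, 226.5 and 279.8 against 323.5, 308.4 and 324.9, also without overlap (0.28, adjusted p 0.127). Gnb3 gave 0.17 and Gnb4 0.01.

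Gamma subunits carry the lipid anchor of the beta-gamma pair. Of 7 on the array, 6 were tested, 5 of them lay above 0 (also after quantile normalization), and the median of the 6 was 0.28. Gng3, a gamma subunit best known from neurons, rose from 186.7, 232.7 and 220 in wild type to 422.5, 309.9 and 322.2 on the Bmal1-/- labelled arrays. Replicate 4 was the highest, and the lowest Bmal1-/- labelled array still lay above the highest wild-type one. The means were 213 ± 23.8 (SD) and 352 ± 61.8, a log2 fold change of 0.67 (SE 0.12, 95% interval 0.41 to 0.94, adjusted p 0.0088). It passed under all 16 alternatives, with a highest adjusted p of 0.0444. The summed neuronal markers lay at 267 to 300 in wild type and 271 to 332 on the Bmal1-/- labelled arrays. None of the 3 tested passed, and they did not share a direction. Syn1, the brightest, gave 0.31 (adjusted p 0.158), Nefm -0.51 (0.0684, without overlap) and Nefl -0.24. The part of these markers in the Gng3 difference was not tested.

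Gng10 and Gng11 pointed in opposite directions, and both turned on wild-type replicate 2. Gng10 read 459.5, 568.2 and 470 in wild type and 649.1, 633.8 and 573.1 on the Bmal1-/- labelled arrays (0.31, SE 0.09, adjusted p 0.0808), groups that came within a few units of each other. Without wild-type replicate 2, its difference was 0.40 (adjusted p 0.0205). Gng11 was the 1 tested gamma subunit below 0. It read 377.5, 271.3 and 388.6 against 248.9, 281 and 215.8, so wild-type replicate 2 lay inside the other group (-0.44, SE 0.14, adjusted p 0.0785), and without that array it gave -0.60 (adjusted p 0.0113). Gng2 gave 0.28 (adjusted p 0.108), Gng12 0.29 and Gng4 0.07.

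**Figure D2:**
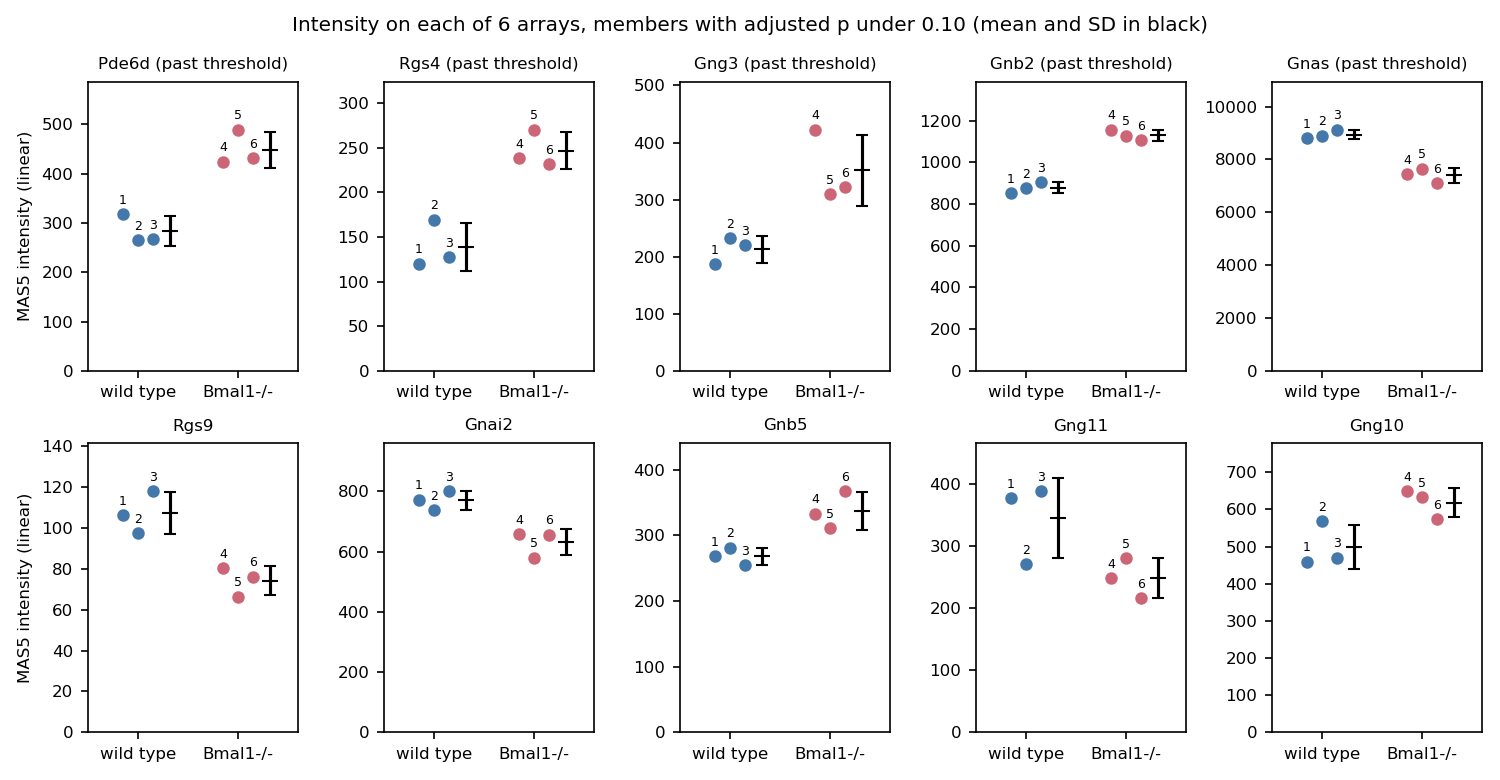
Linear MAS5 intensity of the 10 members with a limma adjusted p under 0.10, 1 point per array with its replicate number, and the mean and SD of each genotype in black. The genotypes overlap for Gng11, where wild-type replicate 2 (271.3) lies below Bmal1-/- replicate 5 (281), and do not overlap for the other 9.

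RGS proteins shorten the signal of Gi and Gq alpha subunits. Of 16 members on the array, which leave out Rgs5, 11 were tested. Of these, 9 were below 0 (median -0.11), a count of 8 after quantile normalization and of 7 with equal array medians. Rgs4 had the largest change of any tested member. Among these 11 it was the 1 that passed, against 5.66% of all tested genes. It rose from 120, 169.3 and 127.4 in wild type to 238.2, 270 and 231.1 on the Bmal1-/- labelled arrays. The lowest Bmal1-/- labelled array lay well above the highest wild-type array. The means were 139 ± 26.6 (SD) and 246 ± 20.7, a log2 fold change of 0.77 (SE 0.13, 95% interval 0.50 to 1.04, adjusted p 0.0045).

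Other Rgs4 probe sets gave less. The second read 49.3, 75.6 and 67.9 in wild type and 66, 94.9 and 99.9 on the Bmal1-/- labelled arrays, overlapping (0.36, SE 0.17, adjusted p 0.249). The third, the dimmest, gave -0.02 (adjusted p 0.967). Averaging the probe sets gave 0.37 and lost the call (adjusted p 0.107). In the same arrays Rgs5, a relative of Rgs4 and a pericyte marker that the rule leaves out, fell by 0.77 on the log2 scale (adjusted p 0.000244), opposite to Rgs4. All 4 tested pericyte and smooth muscle markers lay below 0, with Abcc9, Myh11 and Des near the floor, and the part of these markers in the Rgs4 difference was not tested.

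Rgs9, Rgs16 and Rgs2 did not pass. Rgs9, of the R7 family, read 106, 97.3 and 117.8 in wild type and 80.3, 66.3 and 76 on the Bmal1-/- labelled arrays, without overlap (-0.45, SE 0.12, adjusted p 0.0537). It passed in 5 of the 16 alternatives, with a lowest adjusted p of 0.0302. Rgs16, an RGS gene that cycles daily in the suprachiasmatic nucleus, had 3 tested probe sets, at -0.34, -0.54 and -0.59. All 3 were without overlap between genotypes, and their lowest adjusted p was 0.0871. Rgs2, which acts on Gq, differed by -0.09 (95% interval -0.33 to 0.16). The remaining tested RGS genes, Rgs3, Rgs7, Rgs8, Rgs10, Rgs11, Rgs17 and Rgs19, ranged from -0.29 to 0.19.

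Adenylyl cyclases make cAMP. Of 7 on the array, 5 were tested and limma called 0, against 5.66% of all tested genes. The median log2 fold change was -0.08, and 1 reached an unadjusted p under 0.05, against 21.5% of all tested genes. That 1 was Adcy7, which read 61, 53.6 and 43.7 in wild type and 40.5, 34.9 and 25.9 on the Bmal1-/- labelled arrays. The groups did not overlap, but the gap was small beside their spread (-0.47, SE 0.16, adjusted p 0.112). Adcy7 is well expressed in macrophages, whose summed markers were also lower. All 6 tested macrophage markers lay below 0, C1qa passed the threshold (-0.48, adjusted p 0.0280) and Cd163 was near the floor. Their part in the Adcy7 difference was not tested. Adcy3 gave 0.39 (SE 0.18), Adcy2 -0.20, Adcy9 -0.08 and Adcy6 0.06.

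Phosphodiesterases degrade cAMP, cGMP or both. Of 17 cyclic nucleotide phosphodiesterase genes on the array, 8 were tested, and limma called 0, with 0 at an unadjusted p under 0.05. Over all tested genes the shares were 5.66% and 21.5%, so counts of 0 among so few genes say little. The log2 fold changes of the 8 ran from -0.04 to 0.25, with a median of 0.08. Of the 8, 6 lay above 0, or all 8 after quantile normalization or with equal array medians, which lifts the median gene. Pde4b, a cAMP-specific enzyme induced by cAMP itself in many cells, had the smallest p, at 0.23 (SE 0.13, adjusted p 0.353). It read 46.3, 54.1 and 60.1 in wild type and 65.8, 69.6 and 60.3 on the Bmal1-/- labelled arrays, so its groups came within a single unit. Pde2a gave 0.25 and Pde7a 0.17, while Pde8a gave -0.0017 and Pde1a -0.04.

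PKA carries most of the cAMP signal to its targets. None of its 5 tested subunit genes passed in limma, and by their brightest probe sets 0 reached an unadjusted p under 0.05. Over all tested genes the shares were 5.66% and 21.5%, so such counts among 5 genes say little. Prkar1a, the regulatory subunit whose loss causes Carney complex in people, differed by 0.07 (95% interval -0.09 to 0.22). Prkar1b differed by -0.02 with its brightest probe set. A second Prkar1b probe set gave 0.25 without overlap (adjusted p 0.128), and the third gave -0.06. Prkar2a read 39.3, 21.1 and 14.6 in wild type and 12.5, 14.3 and 15.7 on the Bmal1-/- labelled arrays (-0.40, SE 0.21, adjusted p 0.299), where wild-type replicate 1 stood apart from the other 5 arrays. The catalytic subunits gave -0.22 for Prkaca (95% interval -0.45 to 0.01, adjusted p 0.255) and 0.11 for Prkacb (-0.07 to 0.29).

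The rule also took 5 genes whose symbols match a family name but whose products do something else. Among the 3 tested, Pde6d had the smallest p of all members. Pde6d encodes a chaperone that binds prenylated proteins such as small GTPases and carries them between membranes, and it is no phosphodiesterase. It rose from 317.7, 265.5 and 267.4 in wild type to 424, 488.9 and 430.8 on the Bmal1-/- labelled arrays. The gap between the groups was larger than the range within either. The means were 284 ± 29.6 (SD) and 448 ± 35.7, a log2 fold change of 0.63 (SE 0.10, 95% interval 0.42 to 0.84, adjusted p 0.00319), and it passed under all 16 alternatives, with a highest adjusted p of 0.0258. Pde4dip, a scaffold of the centrosome and Golgi, gave 0.28 (adjusted p 0.223), and Pde12, a mitochondrial RNA-degrading enzyme, -0.12.

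**Figure D3:**
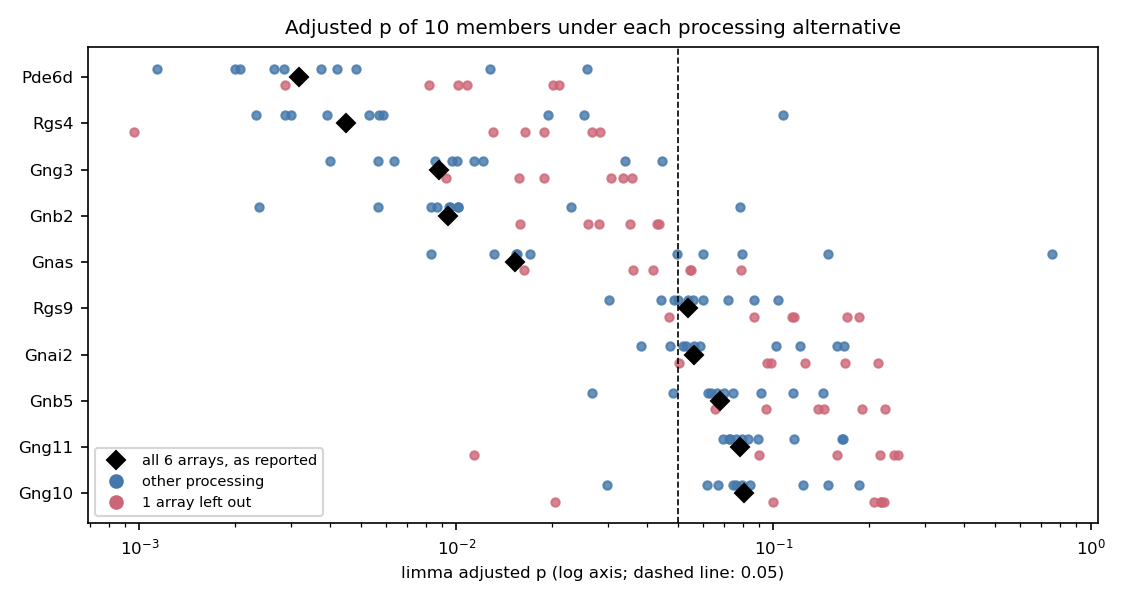
limma adjusted p on a log axis for the 10 members under 0.10, with all 6 arrays (black diamonds), with other processing (blue) and with 1 array left out (red), and a dashed line at 0.05. Pde6d and Gng3 stay left of the line in every alternative, Rgs4 and Gnb2 cross it once each, and Gnas crosses it in 7 of 16.

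Probe sets of 1 gene are a check on each call. The members had 139 single-gene probe sets, of which 89 were tested and 6 passed, against 5.54% of all tested probe sets. Of 24 members with more than 1 tested probe set, 15 had all on the same side of 0 and 9 did not. Gna13 had the most, with 6 running from -0.17 to 0.40. Among the genes that passed, Gnas had 3 on the same side and Rgs4 was split.

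**Figure D4:**
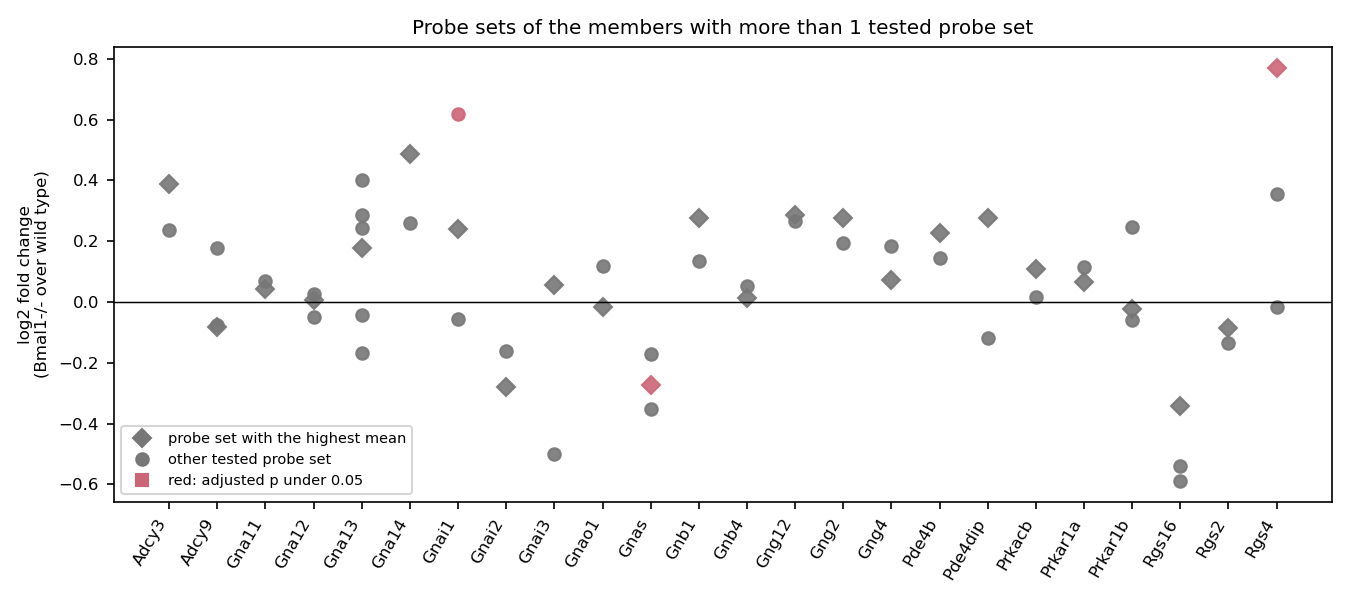
Each point is the log2 fold change of 1 tested probe set, Bmal1-/- labelled arrays over wild type, for the 24 members that have more than 1; diamonds are the brightest probe set of a gene and red points passed an adjusted p of 0.05. The red points are 1 probe set each of Gnas (-0.27), Rgs4 (0.77) and Gnai1 (0.62).

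The genes that feed these members and answer to them were read from 9 lists of receptors, modulators and effectors. Of 78 listed genes on the array, 38 were tested. limma called 0 that rose (0 at an unadjusted p under 0.05) and 3 that fell (5 at an unadjusted p under 0.05). The called share was 7.89%, against 5.66% of all tested genes, and the share at an unadjusted p under 0.05 was 13.2%, against 21.5%. These shares count Sstr2, which passed the filter on dim probe sets only through its wild-type arrays. The median log2 fold change was -0.08, and 26 of 38 lay below 0, a count of 23 after quantile normalization and of 20 with equal array medians.

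Ghrhr, Sstr2 and Prkcb fell. Ghrhr, the Gs-coupled receptor of growth hormone-releasing hormone, read 466.4, 585.6 and 632 in wild type and 372.6, 313.6 and 355.7 on the Bmal1-/- labelled arrays, without overlap (-0.66, SE 0.11, adjusted p 0.00553). The other tested Gs-coupled receptor, Crhr1, gave 0.12. Sstr2, a Gi-coupled somatostatin receptor, read 29.9, 22.5 and 27.9 against 14.5, 9.9 and 11, without overlap (-0.62, SE 0.16, adjusted p 0.0430). All 3 of its Bmal1-/- labelled values lie below the level of the filter for dim probe sets (a mean equal to an intensity of 17.3). It passed that filter only through its wild-type values, so its call carries little weight. The call was lost without Bmal1-/- replicate 4, 5 or 6 (adjusted p up to 0.139). It was also lost after quantile normalization (0.0798) and with no filter on dim probe sets (0.1004).

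Prkcb, a protein kinase C that acts below Gq, read 121, 127.6 and 140.7 in wild type and 79.9, 86.3 and 88 on the Bmal1-/- labelled arrays, without overlap (-0.53, SE 0.11, adjusted p 0.0182). The call was lost without wild-type replicate 3 (adjusted p 0.0764) or Bmal1-/- replicate 4 (0.0640) or 5 (0.0590). Prkcb is also abundant in immune cells. Beside the macrophage markers, the 5 measured lymphocyte markers, all near the floor, summed to 49.3 to 60.8 in wild type and 21.2 to 28.1 on the Bmal1-/- labelled arrays, and their part in its difference was not tested. All 4 tested Gi-coupled receptors lay below 0: Sstr2, Sstr5 (-0.46, adjusted p 0.0976), Gabbr1 (-0.29) and the dopamine receptor Drd2 (-0.02), which turned positive with equal array medians. The rest of the 14 on the array were too dim to test and did not share a direction. Oprk1 read 10.8, 7.5 and 3.8 in wild type against 40.2, 18.4 and 18.8, higher without overlap. Sstr3 read 1.8, 19.3 and 8 against 0.7, 0.6 and 0.4, lower without overlap.

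No gene of the other 6 lists passed. The smallest p among the 2 tested Gq-coupled receptors was that of Gnrhr (-0.23, adjusted p 0.315). Among 4 receptor kinases and arrestins it was Grk5 (0.35, 0.248), and among 3 other G protein modulators Ric8a (-0.14, 0.486). Among 8 cAMP effectors, PKA inhibitors and anchors it was Rapgef3 (-0.35, 0.249), a cAMP-activated exchange factor for Rap. Among 4 genes of the CREB family and its coactivators it was Crem (-0.33, 0.300), which makes a cAMP-induced repressor. Among 5 transcripts driven by CREB it was Junb, at -0.37 (adjusted p 0.502).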

How the data were processed

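The authors deposited linear intensities, 1 for each probe set on each array, made with MAS5 per the submitters' processing notes. The sources used here give no version or target, and the trimmed mean was 100.0 on all 6 arrays. MAS5 subtracts a mismatch background, so dim values are noisy.

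Of 22690 probe sets, 64 are controls, 20380 of the others name 1 gene, 691 several and 1555 none in the platform annotation. No gene was named from a probe set with several, and 3 such probe sets that match the symbol rule were left out. Values were taken as log2(intensity + 16), which understates changes of dim genes. The brightest 60% (13576, down to a mean equal to an intensity of 17.3) were tested with limma 3.58.1 in R 4.3.3 (lmFit and eBayes with trend, two-sided), with Benjamini-Hochberg adjustment over all of them, and 752 passed. The procedure was tested on simulated data first. Each gene was read by its brightest probe set. The labels name no batch.

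Named are members with an adjusted p under 0.10, the smallest p in each family with none past 0.05, core subunits such as Gnas, Gnai1 and Prkaca, pathway genes past the threshold and the smallest p of other lists. The remaining members are given by value or range. The members and lists were chosen with earlier results of these data known. Promoter sequences are from RefSeq, build GRCm38.p6. The sources used here name no build for the array annotation. Alternatives covered the pseudocount, normalization, filter, variance model, array weights, probe set choice, threshold and each array left out.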

Additional observations from a re-analysis of the deposited data

How the results depend on the processing

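The array-wide count of 752 changed probe sets was 330 without the filter on dim values, 407 without the variance trend and 314 to 950 with 1 array left out, highest without wild-type replicate 2. The 4 members that rose became 8 with equal array medians, 6 at a threshold of 0.10, and 4 to 5 with 1 array left out. They became 3 without the trend, with Gnb2 lost, and 5 without the _s_at and _x_at probe sets, with Gnai1 added. Under the mean of probe sets there were still 4, with Gnb5 in place of Rgs4. Of all tested genes, 5.66% were called, 8.44% with equal array medians, 3.09% without the trend and 2.58% to 6.96% with 1 array left out. The 1 member that fell became 0 without the filter or without the trend, 2 with the top 40% of probe sets or with robust estimation, 3 with array weights, 4 at a threshold of 0.10, and 0 to 3 with 1 array left out. The count stayed at 1 with another gene in place of Gnas in 3 alternatives: Gnai2 after quantile normalization, and Rgs9 with the mean of probe sets or without those ending in _x_at or _s_at. The 3 pathway genes that fell became 1 to 3 with 1 array left out, with 1 left when wild-type replicate 3, Bmal1-/- replicate 4 or Bmal1-/- replicate 5 was dropped.

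Over the 25 named genes, 355 of 391 alternatives kept the direction and the side of the threshold, 17 lost a call, 13 gained 1 and 6 changed sign. The sign changes were all in genes with no call: Gnao1 (0.065 with equal array medians, 0.052 with the mean of its probe sets, and -0.061 to 0.026 with 1 array left out, above 0 without wild-type replicate 1 or Bmal1-/- replicate 5), Rgs2 (0.0012 with equal array medians) and Gnai3 (-0.22 with the mean of its probe sets). The cause was not tested. Some alternatives gave no value for Prkar2a, Adcy7 or Sstr2, which lie near the filter. No paired analysis was possible because replicate numbers are not shared between the genotypes. The 3 arrays per genotype limit the precision.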

Other observations

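The 22 members too dim to test read 0.1 to 25.1 on single arrays, the highest being Pde4a. They hold the photoreceptor genes Gnat1, Pde6a, Pde6b, Pde6c, Pde6g and Pde6h. Gnat2, another photoreceptor gene, was bright enough to test, with means of 84.7 in wild type and 68.9 on the Bmal1-/- labelled arrays. All 4 measured photoreceptor markers were as dim as the 22, with a summed intensity of 14.5 to 25.9 in wild type and 10.9 to 32.9 on the Bmal1-/- labelled arrays. The 22 also hold the blood cell genes Rgs1, Rgs18 and Gna15, and the cyclases Adcy4 and Adcy8. With no filter, limma called 0 of the 22, against 1.77% of all 12393 genes. The lowest limma adjusted p of the 22 was 0.371, and 0 reached an unadjusted p under 0.05. The genotypes did not overlap for 2, Gnat1 and Gnb1l. Among the genes past the filter, 26.4% did not overlap and 21.5% reached an unadjusted p under 0.05. Those shares leave out the dim genes, so nothing is read from the counts in the 22. MAS5 values this low say nothing firm about presence.

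Within 20 Mb of Arntl lie 2 members, Pde2a and Rgs10, and neither passed.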
